A study of Mus musculus with 6 samples.

Results

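The 10 genes described here encode the matrix of hyaline cartilage: the collagen chains Col2a1, Col9a1, Col9a2, Col9a3, Col11a1 and Col11a2, the proteoglycan aggrecan (Acan) with its link protein Hapln1, and the adaptor proteins Comp and Matn3. They were chosen by name, as were the gene lists given below, with earlier results of these data known. All 10 were found among the 25491 genes of the deposited table, and all 10 passed the filter on low counts. RNA was measured in mesenchymal progenitor cells, marrow stromal cells of the mouse with the potential to make bone, cartilage or fat. Sorting of fresh marrow selected cells by the absence of CD45, TER119, CD31, CD44 and SCA1 and the presence of the integrin chain CD51. The wild type group (3 libraries) and the Lama4-/- group (3 libraries) both came from C57BL/6J mice aged 14 weeks, taken 6 weeks after sublethal irradiation at 7 Gy. Lama4-/- mice lack laminin alpha 4, a chain of basement membrane laminins. The labels name no allele, and the design names 3 mice of each genotype without tying a library to a mouse, so the p-values reflect spread among these libraries, and that spread may be technical. All animals were irradiated, so nothing here compares irradiated with untreated marrow. The comparison asks how cartilage matrix transcripts differ between progenitors with and without laminin alpha 4 after irradiation.

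Cartilage matrix is built on thin fibrils of type II collagen. The 3 type XI collagen chains, of which Col2a1 itself supplies the third, sit in the core of the fibril and limit its width, and type IX collagen, a trimer of the products of Col9a1, Col9a2 and Col9a3, decorates the fibril surface. Aggrecan carries chondroitin and keratan sulfate chains that hold water, and Hapln1 locks aggrecan onto hyaluronan. Comp and Matn3 bridge collagen fibrils and other matrix proteins. In chondrocytes these genes are switched on by SOX9 with SOX5 and SOX6, and in long bones their products are best known from growth plate and joint cartilage.

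The stretches of 250 bases directly upstream of the start annotated by RefSeq are shown for 5 members, since the genotypes separated in the first 4 and overlapped in the last, Matn3. The sequences are from RefSeq on GRCm38.p6, where 7 of the 10 members had an entry; Col2a1, Col9a3 and Comp had none. Each is written 5′ to 3′ in lower case, with capitals for any match, on either strand, to GGGCGG (the GC box bound by Sp1-type factors) or TATAAA (the TATA box). Neighbouring GC boxes can overlap.
Acan, chr7:79052976-79053225, plus strand: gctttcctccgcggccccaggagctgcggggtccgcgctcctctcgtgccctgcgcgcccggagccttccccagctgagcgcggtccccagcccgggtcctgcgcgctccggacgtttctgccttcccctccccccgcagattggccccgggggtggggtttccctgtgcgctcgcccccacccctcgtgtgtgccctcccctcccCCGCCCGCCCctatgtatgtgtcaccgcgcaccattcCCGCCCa
Col11a1, chr3:114030290-114030539, plus strand: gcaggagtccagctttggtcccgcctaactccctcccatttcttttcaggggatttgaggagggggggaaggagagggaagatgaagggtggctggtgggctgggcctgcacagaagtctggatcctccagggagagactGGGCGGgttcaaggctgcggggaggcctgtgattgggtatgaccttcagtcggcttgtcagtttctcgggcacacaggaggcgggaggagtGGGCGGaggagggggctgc
Col11a2, chr17:34038888-34039137, plus strand: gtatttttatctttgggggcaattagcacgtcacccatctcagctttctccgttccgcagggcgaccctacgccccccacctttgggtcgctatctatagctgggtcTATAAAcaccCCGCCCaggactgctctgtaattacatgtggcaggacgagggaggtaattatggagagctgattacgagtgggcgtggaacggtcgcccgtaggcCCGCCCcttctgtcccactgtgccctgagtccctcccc
Col9a1, chr1:24177360-24177609, plus strand: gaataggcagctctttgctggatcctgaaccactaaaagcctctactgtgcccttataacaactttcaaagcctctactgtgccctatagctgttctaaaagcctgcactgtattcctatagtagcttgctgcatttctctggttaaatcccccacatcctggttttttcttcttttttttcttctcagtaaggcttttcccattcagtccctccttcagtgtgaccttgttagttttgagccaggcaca
Matn3, chr12:8947679-8947928, plus strand: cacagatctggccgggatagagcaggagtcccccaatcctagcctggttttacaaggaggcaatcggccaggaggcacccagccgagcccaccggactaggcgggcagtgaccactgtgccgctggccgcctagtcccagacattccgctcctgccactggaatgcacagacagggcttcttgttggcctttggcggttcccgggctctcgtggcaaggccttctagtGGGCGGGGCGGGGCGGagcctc
GGGCGG was in the window of 5 of the 7 members (Acan, Col9a2, Col11a1, Col11a2 and Matn3) and in 32.7% of all 32851 promoter entries. TATAAA was in 1 of 7, Col11a2, and in 12.4% of all entries. The letters ACAAAG and ACAATG, core forms read by SOX proteins, were searched on both strands in the same way and were in 0 of the 7 members' windows, against 16.5% and 10.7% of all entries. Of the 4 members with separated genotypes, Acan, Col11a1 and Col11a2 held a GC box in the window and Col9a1 held none. Col9a1 had a second RefSeq start, not shown, whose window also held none. Of the members with overlapping genotypes and an entry, Matn3 held 3, Col9a2 held 2 and Hapln1 held none.

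Levels below are CPM, counts scaled to a TMM-adjusted library total of 1e6, and means are ± SD over 3 libraries. Library totals ran from 6263830 counts in wild type replicate 2 to 15663957 in Lama4-/- replicate 1. Genes with any count numbered 20069, 18393 and 18539 in wild type replicates 1, 2 and 3. In Lama4-/- replicates 1, 2 and 3 they numbered 17072, 18751 and 16312. The part of these library differences in the members' differences was not tested. Lama4 was counted 607, 236 and 438 times in the wild type libraries and 0 times in each Lama4-/- library, at least 557-fold lower with a floor of 3 counts over the group (adjusted p = 0.0497 in edgeR). Confidence intervals and floors given here hold for counting error alone. Stromal marker RNA was present in every library, with Cxcl12 between 3701 and 10051 CPM, and Lepr at 203 to 443 CPM in wild type and 68.8 to 167 CPM in Lama4-/-. The defining markers of other lineages in the gate were low: Ptprc (CD45) was at 4.09 CPM or less and Pecam1 (CD31) at 2.05 CPM or less, while Cd44 RNA was between 53.2 and 152 CPM. Across all genes tested, log2 fold changes went down with the length of the longest annotated transcript (Spearman's rho -0.46 across 14463 genes, which are not independent replicates). Each member is therefore also given with that trend removed from every library.

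Cartilage matrix RNA was among the most abundant in these sorted cells. Col2a1 had the highest mean CPM of any gene in both genotypes. It took 6.88%, 9.89% and 6.99% of the counts of wild type replicates 1, 2 and 3. In Lama4-/- replicates 1, 2 and 3 it took 5.19%, 9.60% and 4.71%. All 10 genes together took 11.2%, 15.7% and 11.9% of the wild type libraries and 7.94%, 14.9% and 7.70% of the Lama4-/- libraries, 12.9% ± 2.42 against 10.2% ± 4.10 (SD, n = 3). The widest 95% Wilson interval of these shares of all 10 genes, that of wild type replicate 2, ran from 15.66% to 15.71%. Replicate 2 of each genotype was the highest, and Lama4-/- replicate 2 was above 2 of the 3 wild type libraries, so the groups overlapped. Col2a1 made up between 58.5% and 65.4% of the members' counts in all 6 libraries. With bulk RNA, fewer cartilage-forming cells and less cartilage RNA per cell cannot be told apart.

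**Figure D1:**
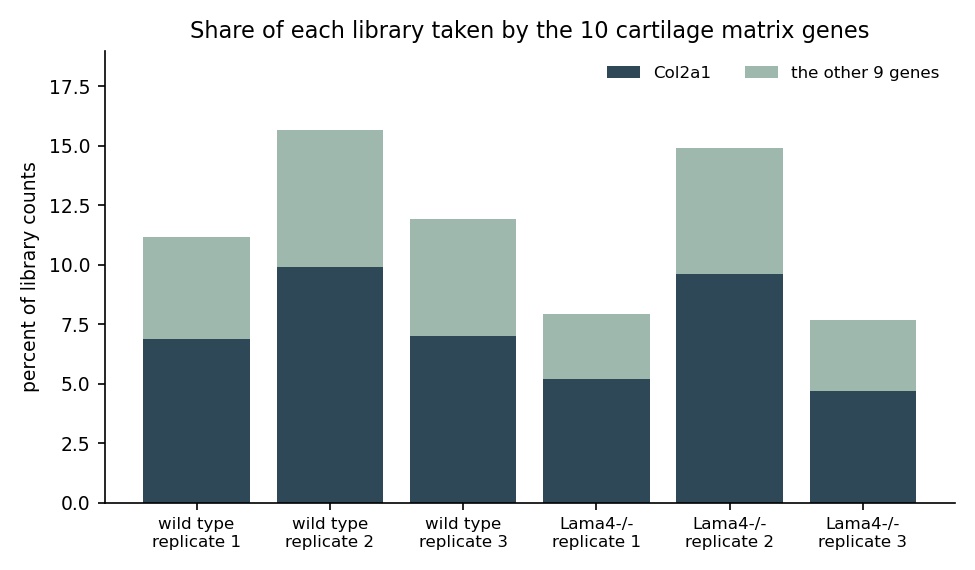
Share of each library's counts (percent, vertical axis) taken by Col2a1 (dark) and by the other 9 cartilage matrix genes (light), 1 bar per library. Replicate 2 of each genotype stands highest, at 15.7% in wild type and 14.9% in Lama4-/-.

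Per kilobase of the longest annotated transcript, the members covered a wide range of levels. In wild type Col2a1 was at 16036 ± 4151 CPM per kilobase, followed by Comp at 3876 ± 1174, Col9a3 at 2860 ± 663 and Col9a2 at 1775 ± 608. Col9a1 at 1346 ± 206, Col11a2 at 1263 ± 345, Matn3 at 1123 ± 378 and Col11a1 at 878 ± 160.5 CPM per kilobase formed a middle group. Hapln1 at 431 ± 93.8 and Acan at 423 ± 87.2 were the lowest. Neighbours in this order differed by less than the larger of their SDs, except Col2a1 and Comp, Col9a3 and Col9a2, and Col11a1 and Hapln1. In Lama4-/- the order began in the same way, with Col2a1 at 12458 ± 5121, Comp at 3204 ± 1449, Col9a3 at 2724 ± 1188 and Col9a2 at 1495 ± 591 CPM per kilobase. At the lower end Col11a1 was at 339 ± 95.9, Hapln1 at 292 ± 122 and Acan at 152 ± 55.0 CPM per kilobase.

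Between genotypes, all 10 members had a lower mean in Lama4-/-, but 0 of 10 reached an adjusted p under 0.05 over all 14465 genes tested by edgeR's quasi-likelihood method, which called 0.00691% of genes (Lama4). At an unadjusted p under 0.05 4 members were lower and 0 higher, where 8.34% of all genes tested were called lower and 4.45% higher. The 4 were Acan, Col11a1, Col11a2 and Col9a1, and they were also the 4 members whose genotypes did not overlap, a separation in this direction seen in 12% of all genes tested. The count was 6 without Lama4-/- replicate 2, and 2 without wild type replicate 2, without wild type replicate 3, without Lama4-/- replicate 1 or without Lama4-/- replicate 3. The share of all genes at that level was not worked out for these fits with a library left out. DESeq2 called 2 members, Acan and Col11a1 (3.2% of genes tested were called lower), and limma voom called 0. The median log2 fold change of the members was -0.47, beside -0.04 for all genes tested, of which 52.0% were below 0.

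**Figure D2:**
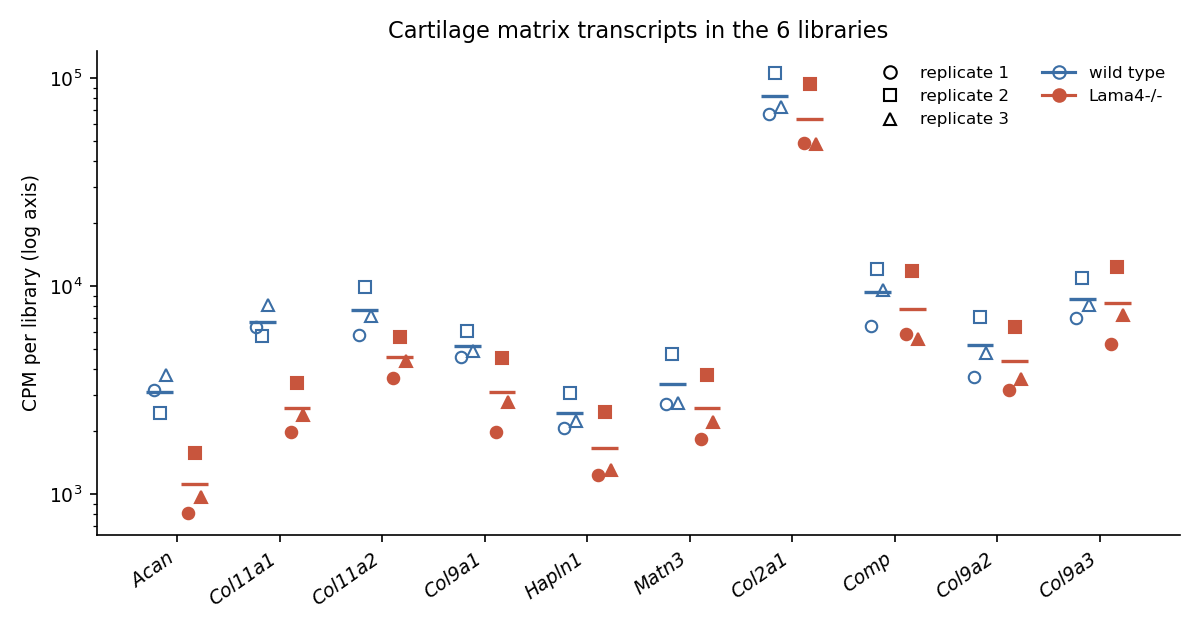
CPM of the 10 genes (log axis) in each library, ordered by log2 fold change, with open blue symbols for wild type, filled red symbols for Lama4-/-, a marker shape for each replicate and a bar for the mean of 3. Acan, Col11a1, Col11a2 and Col9a1 show no overlap between genotypes, and Lama4-/- replicate 2 (square) is the highest Lama4-/- library for all 10 genes.

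Acan, the large proteoglycan that gives cartilage its resistance to compression, showed the largest difference. It was at 3167, 2441 and 3719 CPM in wild type replicates 1, 2 and 3 and at 812, 1579 and 971 CPM in the Lama4-/- replicates. Every wild type library was above every Lama4-/- library, with wild type replicate 2 and Lama4-/- replicate 2 the closest pair. The log2 fold change was -1.47 (SE 0.30), 2.78-fold lower (edgeR adjusted p = 0.237, DESeq2 adjusted p = 7.21e-05). The gene lies on chromosome 7, 79053483 to 79115099, plus strand (GENCODE M21, GRCm38). Its longest transcript has 7355 bases. The 722 tested genes within 10% of that length had a median log2 fold change of -0.82 with quartiles of -1.27 and -0.31, so Acan lay below the lower quartile of genes of its length. With the length trend removed its log2 fold change was -0.63 (SE 0.24). Acan was the member with an unadjusted p under 0.05 in all 17 alternatives tried, between 2.85e-07 and 0.0332.

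Hapln1, the link protein that binds aggrecan to hyaluronan, was at 2076, 3073 and 2233 CPM in wild type replicates 1, 2 and 3. In Lama4-/- it was at 1229, 2472 and 1305 CPM, with replicates 1 and 3 below all wild type libraries and replicate 2 above wild type replicates 1 and 3. Its log2 fold change was -0.56 (SE 0.32, adjusted p = 0.522), close to the median of -0.57 for the 1115 genes within 10% of its 5715 bases, and 0.02 (SE 0.29) with the length trend removed. The gene lies on chromosome 13, 89539796 to 89611652, plus strand. Within a library, the ratio of Hapln1 to Acan counts was 0.655, 1.26 and 0.6004 in wild type and 1.51, 1.57 and 1.34 in Lama4-/-. The log2 ratio was higher in Lama4-/- by 0.90, with no overlap. The exact permutation p was 0.10, the smallest that 3 libraries against 3 allow, and 0.20 after Benjamini-Hochberg adjustment over the 6 ratios tested. Acan has the longer transcript, and the ratio was not corrected for the length trend.

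Col11a1, which encodes the alpha 1 chain of the fibril-nucleating type XI collagen, was at 6370, 5724 and 8103 CPM in wild type replicates 1, 2 and 3 and at 1981, 3412 and 2405 CPM in the Lama4-/- replicates. The genotypes were far apart: the lowest wild type library was above the highest Lama4-/- library, that of replicate 2. The log2 fold change was -1.37 (SE 0.27), 2.59-fold lower (edgeR adjusted p = 0.237, DESeq2 adjusted p = 1.82e-05). With the length trend removed it was -0.50 (SE 0.22). The gene spans chromosome 3, 114030540 to 114220718, plus strand, and its transcript of 7667 bases is the longest of the members.

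Col11a2, the alpha 2 chain of the same trimer, was at 5844, 9927 and 7146 CPM in wild type and at 3610, 5669 and 4362 CPM in Lama4-/-. The genotypes did not overlap, though wild type replicate 1 and Lama4-/- replicate 2 lay close together. The log2 fold change was -0.75 (SE 0.28, edgeR adjusted p = 0.332, DESeq2 0.0539), and -0.10 (SE 0.27) with the length trend removed. It is on chromosome 17, 34039437 to 34066685, plus strand, with 6048 bases of transcript. The ratio of Col11a1 to Col11a2 counts was 1.09, 0.577 and 1.13 in wild type and 0.549, 0.602 and 0.552 in Lama4-/-. Wild type replicate 2 sat inside the Lama4-/- values, and the log2 difference of -0.66 had an exact permutation p of 0.20 (adjusted p = 0.30).

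Col2a1, the type II collagen chain that forms the bulk of the fibril and also the third chain of type XI, was at 67100, 106128 and 72316 CPM in wild type replicates 1, 2 and 3. In Lama4-/- it was at 48835, 93763 and 48161 CPM. Lama4-/- replicates 1 and 3 were below every wild type library and replicate 2 was above 2 of them. The log2 fold change was -0.36 (SE 0.35, adjusted p = 0.729), beside a median of -0.45 for the 1417 genes within 10% of its 5104 bases. It was 0.11 (SE 0.31) with the length trend removed. The gene lies on chromosome 15, 97975602 to 98004695, minus strand. Col11a1 counts were 0.0949, 0.0539 and 0.112 of Col2a1 counts in wild type and 0.0406, 0.0364 and 0.0499 in Lama4-/-. The log2 ratio was lower by 0.99 in Lama4-/-, with no overlap, though wild type replicate 2 came close to Lama4-/- replicate 3 (exact permutation p = 0.10, adjusted p = 0.20). Col11a1 has the longer transcript, and the ratio was not corrected for the length trend.

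Of the type IX collagen chains, Col9a1 had the largest log2 fold change. Col9a1 was at 4545, 6049.5 and 4883 CPM in wild type and at 1981, 4489 and 2782 CPM in Lama4-/-, so that Lama4-/- replicate 2 lay just under wild type replicate 1. Its log2 fold change was -0.74 (SE 0.32, adjusted p = 0.390), below the lower quartile of -0.63 for the 1856 genes within 10% of its 3834 bases, and -0.57 (SE 0.27) with the length trend removed. The gene is on chromosome 1, 24177610 to 24252684, plus strand. Col9a2 was at 3648, 7134 and 4786 CPM against 3171, 6353 and 3594 CPM, and the genotypes overlapped through Lama4-/- replicate 2. Its log2 fold change was -0.25 (SE 0.35, adjusted p = 0.831), and -0.26 (SE 0.31) with the length trend removed. Col9a2 lies on chromosome 4, 121039385 to 121055322, plus strand. Col9a3 was at 7051, 10960 and 8120 CPM against 5285, 12310 and 7300 CPM. It showed the smallest difference of the members (log2 fold change -0.07, SE 0.35, adjusted p = 0.955), and Lama4-/- replicate 2 held the highest value of all 6 libraries. Col9a3 (chromosome 2, 180597790 to 180622189, plus strand) shares 234 exonic bases with Tcfl5 on the opposite strand, and the library kit does not mark strand.

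The 3 chains of type IX collagen assemble into 1 trimer, so their ratios were compared within each library. Col9a1 counts were 1.25, 0.848 and 1.02 of Col9a2 counts in wild type and 0.625, 0.707 and 0.774 in Lama4-/-. The genotypes did not overlap, at a log2 difference of -0.55 (exact permutation p = 0.10, adjusted p = 0.20). Col9a3 counts were 1.93, 1.54 and 1.70 of Col9a2 counts in wild type and 1.67, 1.94 and 2.03 in Lama4-/-, which overlapped (log2 difference 0.13, exact permutation p = 0.40, adjusted p = 0.48). The ratio of Col9a3 to Col9a2 thus lay between 1.54 and 2.03 in all 6 libraries. These ratios do not depend on how libraries are scaled, but Col9a1 also has the longest transcript of the 3 chains. No ratio was corrected for the length trend, and Col11a1 too has a longer transcript than its partners Col11a2 and Col2a1.

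**Figure D3:**
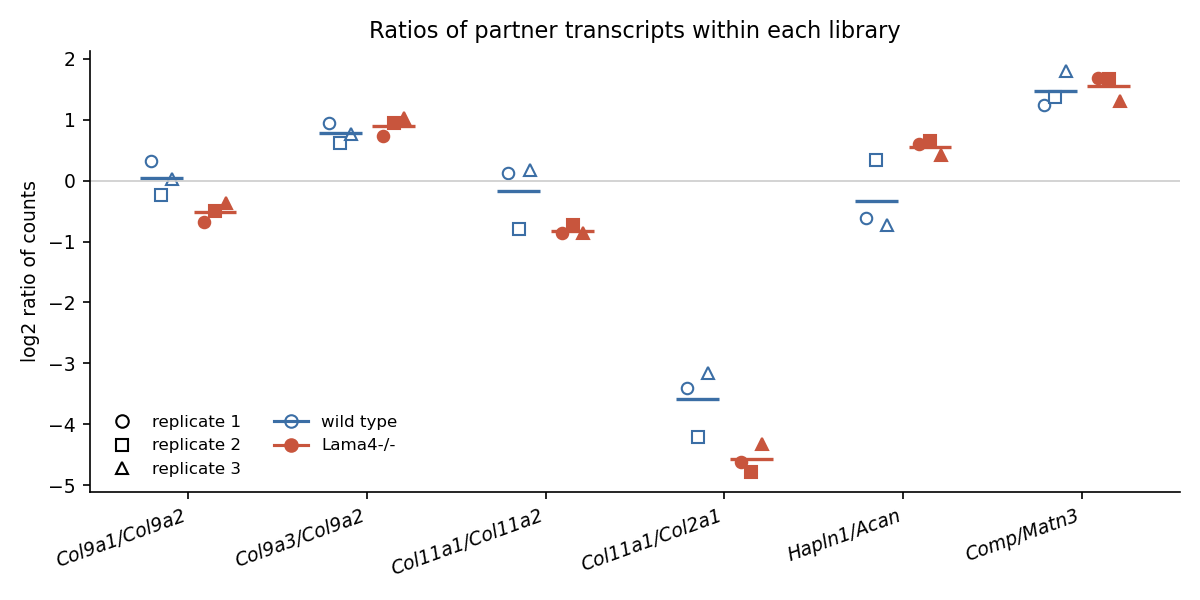
Log2 ratio of counts of partner transcripts within each library (vertical axis) for the 6 pairs compared, with open blue symbols for wild type, filled red symbols for Lama4-/- and bars for means of 3. Col9a1/Col9a2, Col11a1/Col2a1 and Hapln1/Acan show no overlap between genotypes, with exact permutation p = 0.10 each. The ratios are not corrected for the length trend.

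For the adaptors Comp and Matn3, the difference between genotype means was smaller than the SD of either group's libraries. Comp, a pentameric glycoprotein that binds collagens II and IX, was at 6448, 12114 and 9531 CPM in wild type and at 5898, 11779 and 5546 CPM in Lama4-/- (log2 fold change -0.27, SE 0.37, adjusted p = 0.819). Matn3, a matrilin of growth plate cartilage, was at 2724, 4701 and 2730 CPM against 1832, 3725 and 2232 CPM (log2 fold change -0.38, SE 0.34, adjusted p = 0.706). In both genes Lama4-/- replicates 1 and 3 lay below all wild type libraries and replicate 2 lay within their range. Comp is on chromosome 8, 70373558 to 70382066, plus strand, and Matn3 on chromosome 12, 8947929 to 8972028, plus strand. The ratio of Comp to Matn3 counts was 2.37, 2.58 and 3.49 in wild type and 3.22, 3.16 and 2.49 in Lama4-/- (log2 difference 0.08, exact permutation p = 0.90, adjusted p = 0.90).

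The members shared an order of libraries. Lama4-/- replicate 2 was the highest Lama4-/- library for 10 of 10 members and Lama4-/- replicate 1 the lowest for 8. Wild type replicate 2 was the highest wild type library for 8 of 10, the exceptions being Acan and Col11a1, in which it was the lowest. All 3 Lama4-/- libraries were below the lowest wild type library for 4 members, 2 were for 5 members, and for Col9a3 only replicate 1 was. Without Lama4-/- replicate 2 the median log2 fold change of the members was -0.85, and without wild type replicate 2 it was -0.25. The 9 osteoblast markers summed to 96851, 94207 and 126158 CPM in wild type and to 113772, 58965 and 158192 CPM in Lama4-/-. The sum was lowest in Lama4-/- replicate 2, while wild type replicates 1 and 2 lay close together. Col1a2, a type I collagen chain, was at 56670, 42732 and 76834 CPM in wild type and at 61624, 32390 and 74308 CPM in Lama4-/-, lowest in replicate 2 of each genotype. Col1a1, its partner chain, was at 31851, 45028 and 39597 CPM against 42048, 19637 and 69810 CPM, so that replicate 2 was the highest in wild type and the lowest in Lama4-/-. Alpl, the bone alkaline phosphatase, was highest in replicate 2 of both genotypes, at 1600 and 1476 CPM. The opposite held for Bglap and Bglap2, lowest in replicate 2 of both genotypes, at 1641 and 1879 CPM and at 424 and 546 CPM. Sp7, Ibsp and Dmp1 were lowest in Lama4-/- replicate 2 and in wild type replicate 1. Runx2 was lowest in wild type replicate 2 and highest in Lama4-/- replicate 2. The part of osteoblast RNA in the members' differences was not tested.

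Of the markers of other marrow cells, 0 passed the adjustment in edgeR. All 10 neutrophil and monocyte markers tested and all 8 red cell markers had a higher mean in Lama4-/-, 4 of each at an unadjusted p under 0.05, where 4.45% of all genes tested were called higher. DESeq2 called 3 and 1 of them higher, against 1.2% of all genes tested. The 11 neutrophil and monocyte markers summed to 115, 40.1 and 119 CPM in wild type and to 761, 689 and 121 CPM in Lama4-/-, with S100a9 and Ngp the most abundant. S100a9 was between 5.99 and 44.4 CPM in wild type and between 37.3 and 260 in Lama4-/-, and Ngp between 1.20 and 25.1 against 2.40 and 188. The 8 red cell markers summed to 257, 635 and 1693 CPM against 3452, 1379 and 3874 CPM, led by the haemoglobin genes Hbb-bs (122 to 777 against 647 to 1991) and Hba-a1 (47.1 to 311 against 225 to 631). Lama4-/- replicate 3 was close to wild type in the neutrophil sum, and the red cell sums of the genotypes overlapped. The 6 endothelial markers found summed to 6.16 to 9.20 CPM in wild type and 0.12 to 1.74 CPM in Lama4-/-, which did not overlap. Egfl7 was at 3.96 CPM or less, and Kdr, Cdh5, Tie1 and Tek were each at 0 in at least 2 libraries. Only 2 of these markers passed the filter on low counts, and 0 had an unadjusted p under 0.05 in edgeR. The 5 B cell and plasma cell markers in the table were led by Ebf1, also expressed by stroma, at 55.3 to 87.05 CPM in wild type and 42.8 to 46.9 CPM in Lama4-/-, followed by Cd79a at 1.93 CPM or less. The 6 osteoclast markers summed to 252 to 289 against 285 to 487 CPM, which overlapped, with Ctsk between 228 and 460 and Mmp9 between 8.95 and 53.8 CPM. The 8 stromal markers summed to 5117 to 11535 CPM in wild type and 4628 to 7264 CPM in Lama4-/-, led by Cxcl12 and by Adipoq at 400 to 967 CPM. Of these 8, 6 had a negative log2 fold change (52.0% of all genes tested) and 2 a positive one. At an unadjusted p under 0.05, 4 were lower (8.34% of all genes tested), and DESeq2 called 3 lower (3.2%). Their median log2 fold change was -0.74, and -0.21 with the length trend removed. Of the remaining gate genes, Itgav (CD51) was at 95.9 to 139 against 44.5 to 73.0 CPM and Ly6a (SCA1) at 8.64 to 16.3 CPM. The members summed to 74634 to 168252 CPM across libraries. The blood marker sums cover only the listed genes, not all RNA of those cells. The part of these cells in the members' differences was not tested.

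Transcript length ordered the members' fold changes. Spearman's rho between transcript length and log2 fold change was -0.83, a description over 10 genes that share the same 6 libraries. The shortest transcript, of Comp, has 2416 bases and the longest, of Col11a1, 7667. With the length trend removed from every library, 8 of 10 members still had a negative log2 fold change, beside 48.6% of all genes tested, and the median went from -0.47 to -0.32. Acan alone then had an unadjusted p under 0.05 in edgeR, where 3.16% of all genes tested were called lower. Col11a2 went from -0.75 to -0.10 and Hapln1 from -0.56 to 0.02, whereas Col9a1 (-0.74 to -0.57), Matn3 (-0.38 in both) and Comp (-0.27 to -0.41) moved little or the other way.

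**Figure D4:**
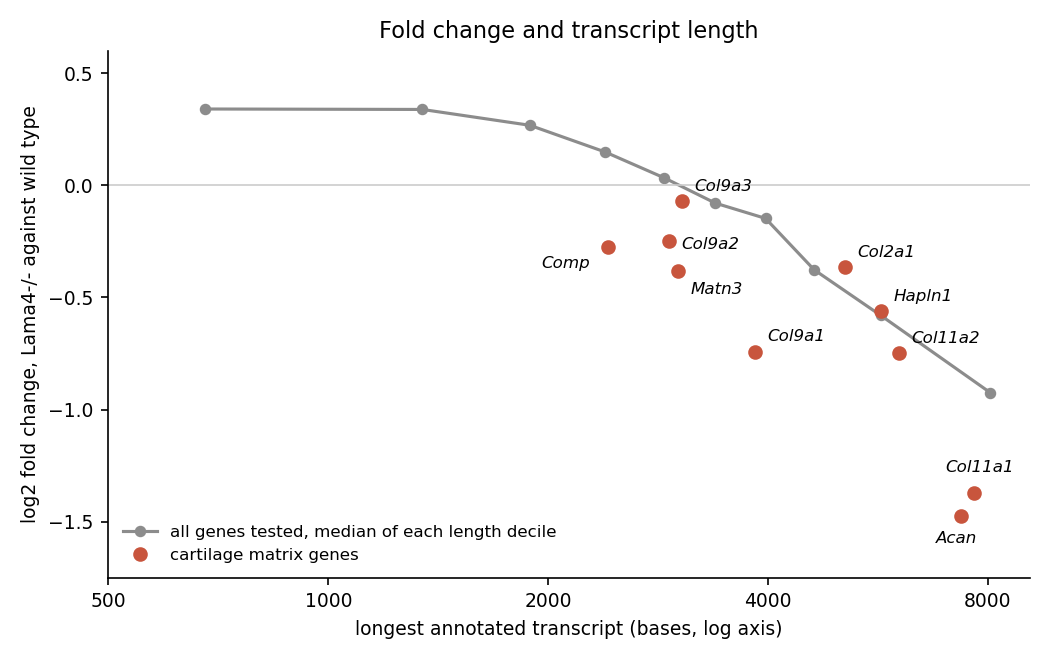
Log2 fold change (vertical axis) against the longest annotated transcript in bases (log axis) for the 10 genes (red) and for the median of each length decile of all genes tested (grey). Decile medians go from 0.34 to -0.92, and Acan, Col11a1 and Col9a1 lie furthest below the grey line.

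**Figure D5:**
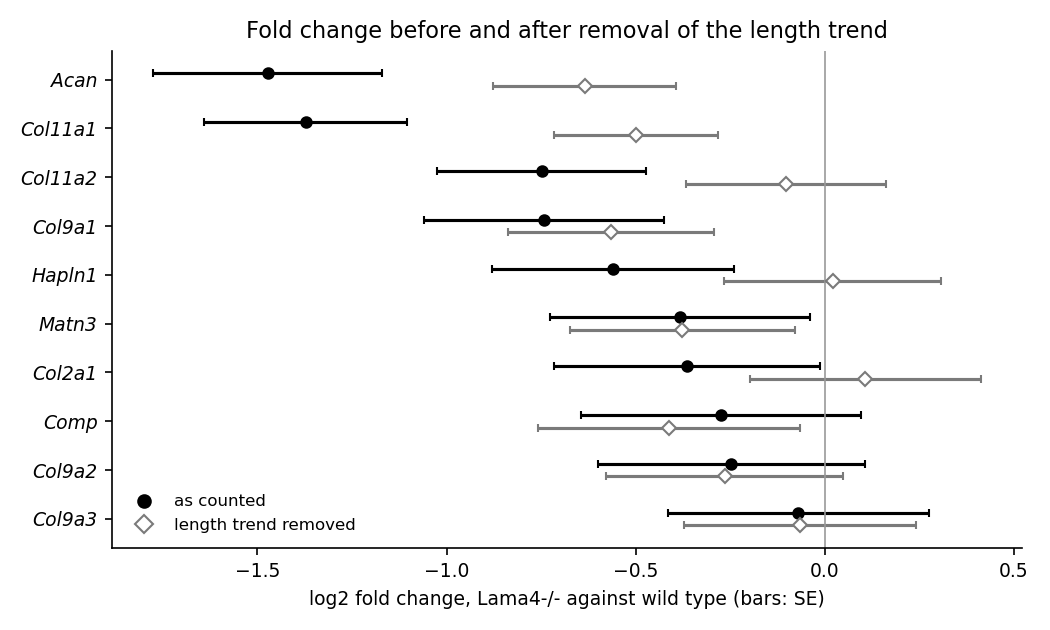
Log2 fold change of each gene with its SE as counted (black circles) and with the length trend removed (open diamonds). Acan and Col11a1 go from -1.47 and -1.37 to -0.63 and -0.50, while Col9a3 stays at -0.07.

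In the authors' deposited table, made with a beta prior on fold changes, 2 members had an adjusted p under 0.05: Acan at a log2 fold change of -1.36 (adjusted p = 2.88e-04) and Col11a1 at -1.29 (adjusted p = 9.05e-05). In the same authors' deposited table, 4.75% of the genes with an adjusted p were called lower, and the other 8 members had adjusted p between 0.0812 for Col11a2 and 0.934 for Col9a3.

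Transcription factors of the cartilage programme had mostly lower means in Lama4-/-. Of 15 listed, 14 were tested, 12 with a negative log2 fold change, and the median was -0.70 (-0.38 with the length trend removed). Of all genes tested, 52.0% had a negative log2 fold change. At an unadjusted p under 0.05, 6 were lower (8.34% of all genes tested) and 0 higher (4.45%), none passed the adjustment in edgeR, and DESeq2 called 4 lower (3.2% of all genes tested). Sox9, the master regulator of the chondrocyte lineage, was at 759, 1189 and 969 CPM in wild type and at 401, 590.1 and 492 CPM in Lama4-/- (log2 fold change -0.98, SE 0.24). Its genotypes did not overlap, and with 4135 bases it kept -0.71 after removal of the length trend. Its partners Sox5 (80.8, 76.4 and 149.9 against 37.0, 68.4 and 32.9 CPM) and Sox6 (55.4, 43.7 and 65.4 against 11.4, 26.9 and 19.4 CPM) were also separated, as were 12% of all genes tested in this direction, and went from -1.15 to -0.33 and from -1.52 to -0.54. Trps1, a zinc finger repressor needed for normal growth plates, was at 179.6 ± 27.4 against 74.2 ± 6.57 CPM and went from -1.28 to -0.20. Runx2, which drives chondrocyte hypertrophy and osteoblast formation, was at 168 ± 37.5 against 68.8 ± 8.55 CPM and went from -1.29 to -0.55.

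As counted, other cartilage matrix genes lay on both sides. Of 20 names, 19 were found (Cnmd was also listed under its older symbol) and 18 tested. As counted, 10 were lower (52.0% of all genes tested) and 8 higher, with a median log2 fold change of -0.01 (-0.20 with the length trend removed). With that trend removed, Snorc, Cnmd, Ucma, Ecrg4 and Mia went from positive to negative and Cilp2 from negative to positive. At an unadjusted p under 0.05 there was 1 lower (8.34% of all genes tested) and 0 higher. That gene was Col27a1, a fibrillar collagen of cartilage, at 1334, 1070 and 1567 CPM in wild type and at 339, 655 and 460.2 CPM in Lama4-/- (log2 fold change -1.45, SE 0.28). Its transcript has 7612 bases, close to that of Col11a1, and with the length trend removed it was at -0.58. Prg4 (lubricin), which coats the joint surface, ranged from 468 to 1744 CPM in wild type and from 158 to 792 in Lama4-/- (log2 fold change -1.34, SE 0.64). Vit was at 168 ± 58.7 against 118 ± 20.4 CPM. Both overlapped between genotypes.

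Enzymes that build and sulfate the glycosaminoglycan chains of aggrecan had mostly lower means: 15 of 21 tested had a negative log2 fold change, 5 at an unadjusted p under 0.05, with 0 higher at that level and a median of -0.48 (-0.15 with the length trend removed). DESeq2 called 3 lower. Over all genes tested, 52.0% were negative, 8.34% were lower at that unadjusted level and 3.2% were called lower by DESeq2. Xylt1, which attaches the first sugar of the chain, was at 195, 172 and 289 CPM against 50.8, 83.3 and 44.8 CPM (log2 fold change -1.87, SE 0.32, and -0.87 with the length trend removed). Impad1, a Golgi phosphatase needed for sulfation, was at 198, 165 and 144 CPM against 31.5, 89.1 and 42.5 CPM (-1.64, SE 0.39, and -0.93). Chst11, a chondroitin sulfotransferase, was at 466 ± 155 against 218 ± 48.7 CPM. All 3 genes had separated genotypes (12% of all genes tested in this direction), with Lama4-/- replicate 2 the highest of its group.

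Signalling genes of chondrocytes were split. Of 15 tested, 10 were lower (52.0% of all genes tested) and 5 higher, with a median of -0.20 (-0.11 with the length trend removed). At an unadjusted p under 0.05, 3 were lower and 1 higher (8.34% and 4.45% of all genes tested). The Hedgehog receptor Ptch1 was at 78.9, 58.6 and 112 CPM against 28.3, 40.1 and 12.8 CPM (log2 fold change -1.62, and -0.53 with the length trend removed). The natriuretic peptide receptor Npr2, which promotes growth of the growth plate, was at 114 ± 26.0 against 70.9 ± 15.1 CPM. The receptor of parathyroid hormone and its related peptide, Pth1r, was higher, at 829, 1365 and 889 CPM in wild type and 1430, 2109 and 1413 CPM in Lama4-/- (log2 fold change 0.68, SE 0.27, adjusted p = 0.360). Its genotypes did not overlap, which was the case in this direction for 10.3% of all genes tested.

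Of 9 proteases and inhibitors that act on aggrecan and type II collagen, 7 had a negative log2 fold change (52.0% of all genes tested). At an unadjusted p under 0.05, 2 were lower (8.34% of all genes tested) and 0 higher. The median was -0.42, and -0.20 with the length trend removed. The aggrecanase Adamts5 was at 169, 54.3 and 201 CPM in wild type and at 52.2, 50.8 and 54.2 CPM in Lama4-/-, so that wild type replicate 2 lay beside the Lama4-/- libraries. Adamts1 was at 450.0 ± 70.7 against 258 ± 73.2 CPM. The membrane metalloproteinase Mmp14 was at 358 ± 20.05 against 272 ± 38.0 CPM. Of 7 tested genes of hyaluronan synthesis and binding, 4 were lower (52.0% of all genes tested). The median of the 7 was -0.12, and -0.32 with the length trend removed. At the same unadjusted level 1 was lower (8.34% of all genes tested). That was the hyaluronan-degrading protein Cemip, at 28.1, 17.1 and 25.9 CPM against 14.1, 12.7 and 5.88 CPM. The proteoglycan Vcan was at 16.2, 11.5 and 18.2 CPM against 0.720, 6.32 and 0 CPM, and the synthase Has1 at 68.4, 89.9 and 58.6 CPM against 101.7, 73.3 and 74.4 CPM. No gene of these lists passed the adjustment in the edgeR test.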

How the data were processed

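RNA from sorted marrow mesenchymal progenitors was amplified with the SMART-Seq v4 low input kit, made into Nextera XT libraries and read as 75 bp single ends, per the labels' protocols. The kit does not mark strand. The labels name 2 instruments without saying which library ran on which, so no batch term could be fitted. The submitters' processing notes name the aligner STAR 2.6.1d, the counter featureCounts of Subread, DESeq2, and the build GRCm38 (mm10); for their settings, the sources used here give nothing. In the deposited table the blocks of counts and of normalized values have exchanged headings: the block headed normalized holds whole numbers throughout and was taken as the authors' counts. Under the raw heading stands a deposited signal equal to the counts times 1 constant per library (0.708 to 1.98), which was not tested. The authors' DESeq2 columns (Wald test, beta prior on), per the file headers, give a mean signal, a log2 fold change, the test statistic (a score) and p-values before and after adjustment.

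Genes passing edgeR's filterByExpr (14465) were scaled with TMM and compared between genotypes in edgeR 4.0.16 (R 4.3.3) by its quasi-likelihood F test with robust moderation, 3 libraries against 3 without covariates, adjusted by Benjamini-Hochberg over all of them at 0.05. SE is the absolute log2 fold change divided by the square root of F. Ratios used counts plus 0.5 and a two-sided exact permutation test. Positions and lengths are from GENCODE M21 (GRCm38), which held 99.9% of the identifiers. The length trend was smoothed per library with lowess (span 0.3), as log2 deviation from the gene's mean on log10 length, and entered as an offset. Libraries of the same genotype differed beyond counting noise (at least 46.4 as chi-square per gene). Members and lists were chosen with earlier results of these data known. Named genes are the members, Lama4, the 3 genes of each related list with the smallest p, Sox9, Sox5 and Sox6, the gate genes and, per marker list, the 2 genes of highest level. The other osteoblast and endothelial markers were named outside this rule, to give those lists. Also outside it were Lepr, the zone genes given last, and the cartilage matrix genes that changed sign with the length trend removed. Alternatives were other scalings and filters, DESeq2 1.42.0, limma 3.58.1 voom, no robust moderation, a replicate block, the length offset, and each library left out; leaving the members out of the scaling was added after seeing the data. The fit was tested on simulated counts of Lama4-/- against wild type over 13648 genes. It recovered 51 of 100 genes with a 4-fold change and 85 of 100 with a 16-fold change, and made 4 false calls. The changed genes were drawn only from those with a mean above 100 counts. It took the rho of a simulated length trend from -0.414 to 3.05e-04. That trend was simulated and removed on the same lengths, so the rho cannot show whether true differences are kept.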

Additional observations from a re-analysis of the deposited data

How the results depend on the processing

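The number of genes past an adjusted p of 0.05 was 1 (Lama4) and became 0 with upper-quartile scaling, limma voom, no robust moderation, the length trend removed, the replicate block, both of these together, or the members left out of the scaling. It was 12 without a filter and 637 with DESeq2, and 0 to 1 with each library left out. Members past it numbered 0 except for 2 with DESeq2. Members with an unadjusted p under 0.05 numbered 4, but 2 with upper-quartile scaling, 1 with the length trend removed and 7 with the replicate block, and 2 to 6 with each library left out. Of all genes tested, 8.34% were lower at that level in the main fit and 3.16% with the length trend removed. For the other settings this share was not worked out. The log2 fold change changed sign for Col9a3 with upper-quartile scaling (0.028) and for Col2a1 (0.11) and Hapln1 (0.021) with the length trend removed, and was 0.080 for Col2a1 with the block added to it. With each library left out it ranged from -0.62 to 0.05 for Col9a2 and from -0.47 to 0.18 for Col9a3, and the Comp to Matn3 log2 ratio difference from -0.031 to 0.25. The median of the members stayed negative, between -0.51 and -0.32 over the other settings and between -0.85 and -0.25 with each library left out. Acan ranged from -1.81 to -1.28 and Col11a1 from -1.62 to -1.20 with each library left out. The cause of these changes was not tested. Libraries with the same replicate number share only a number: their deviations from the genotype means correlated at 0.040, 0.13 and 0.054. Of 6 libraries, 6 correlated best with their own number, at most a weak hint from the data and not the design. These 6 matches are not independent, since deviations were taken from each genotype's own mean. The members' counts are deep enough that spread between libraries, not counting error, limits the precision.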

Other observations

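Genes that mark zones of cartilage, chosen here after their values were seen, gave further values. Cnmd, which encodes the anti-angiogenic chondromodulin, was at 3446, 5145 and 3850 CPM in wild type and 2893, 5406 and 4245 CPM in Lama4-/- (log2 fold change 0.01, SE 0.28, 1433 bases). Chad, a leucine-rich protein of cartilage, was at 5414 ± 2917 against 4584 ± 496 CPM. Col10a1, the collagen of hypertrophic chondrocytes, was at 501, 111 and 247 CPM against 319, 349 and 154 CPM. Its lowest wild type library was replicate 2, the library with the most Col2a1. Ucma and Snorc, small products of growth plate chondrocytes, were at 272 ± 43.2 against 289.6 ± 33.6 CPM and at 453 ± 58.8 against 456 ± 74.4 CPM. Matn1, a relative of Matn3, was at 54.3, 320.1 and 106 CPM in Lama4-/- replicates 1, 2 and 3, against 121 ± 27.8 CPM in wild type. The genotypes overlapped in all 6 of these genes, and none had an unadjusted p under 0.05 in the main edgeR fit. With the length trend removed, the log2 fold change was -0.29 for Cnmd, -0.52 for Chad and -0.08 for Col10a1. It was -0.25 for Ucma, -0.32 for Snorc and 0.18 for Matn1.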
